A study of Mus musculus with 18 samples.

Results

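Zcchc12, Laptm4b, Rbm20, Cryab and Vcam1 are 5 genes whose values were higher in caudal than in rostral embryonic neocortex, out of 13379 genes that could be named and tested. They were chosen by their difference between the caudal and rostral ends, so that difference is described here without a test, and what was tested is where between the ends it arose. All probes with these gene symbols were taken, which gave 6 of the 18525 features tested, and all 6 passed the filter on missing values. Rbm20 had 2 probes and each of the other genes had 1. All 5 middle means lay between the ends. That of Zcchc12 lay near the rostral end, at 0.14 of the way to the caudal one, and those of Cryab, Vcam1, Rbm20 and Laptm4b at 0.35 to 0.66. After adjustment over all features, 0 of the 5 genes passed the test of shape. How far Cryab and Vcam1 differ from Zcchc12 in this depends on how the arrays are scaled.

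The tissue was neocortex of MF1 mouse embryos, an outbred strain, at E13.5, in mid-gestation, with no treatment and no allele named in the labels. It was divided into a rostral (front), a middle and a caudal (back) group, and each group was represented by 3 pools of total RNA. The 9 pools were compared in pairs on 18 arrays with 2 dyes, Cy3 and Cy5, so that every pool appeared on 4 arrays, on 2 of them in Cy3, and any pair of regions met on 6 arrays. The pools came from 4 embryos in all and the labels do not tie a pool to an embryo, so a p-value here covers only the spread from pool to pool, and this spread may be technical.

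At this stage the wall of the neocortex consists of dividing radial glia along the ventricle and of the earliest neurons above them, and regional identity is graded from rostral to caudal before any area can be seen. A transcript can follow that axis as an even gradient, in which the middle lies midway between the ends, or as a step, in which the middle resembles one end. The 5 genes have unrelated products. Zcchc12 encodes a zinc finger CCHC protein of the nucleus, also called Sizn1, which acts as a co-activator of BMP-dependent transcription. Laptm4b encodes a membrane protein of lysosomes and late endosomes. Rbm20 encodes an RNA-binding protein best known for repressing exons of titin and other transcripts of heart muscle. Cryab encodes alphaB-crystallin, a small heat shock protein that keeps unfolded proteins from aggregating and is a binding partner of intermediate filaments. Vcam1 encodes a cell surface adhesion molecule that is bound by integrin alpha4beta1, is found on activated endothelium and occurs on neural progenitors.

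The promoter of 1 of the 5 genes, Zcchc12, was present in the RefSeq promoter sequences used here. It is shown for that reason alone, and a link between this promoter and the profile was not tested. The 250 bases before its annotated start lie at chrX:36195654-36195903 on the plus strand of GRCm38.p6, and capitals mark matches to the GC box, which is GGGCGG or, on the other strand, CCGCCC.
Zcchc12 promoter: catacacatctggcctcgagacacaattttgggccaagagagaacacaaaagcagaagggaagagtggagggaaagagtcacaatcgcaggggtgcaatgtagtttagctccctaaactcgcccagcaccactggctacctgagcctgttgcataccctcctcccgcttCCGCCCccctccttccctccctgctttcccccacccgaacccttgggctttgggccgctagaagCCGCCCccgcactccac
The window held 2 GC boxes, both on the minus strand, 81 and 17 bases before the start, and its GC content was 58.8%, against a median of 52.4% over 32851 windows of the same length. A GC box was found in 32.7% of all those windows. Both strands were also searched for a CCAAT box (CCAAT, in 33.8% of windows), a TATA box (TATAAA, in 12.4%), a nuclear receptor half-site (AGGTCA, in 14% of windows), a homeodomain core (TAATTA, in 4.84%) and a Smad GC element (GGCGCC, in 9.59%). None of these letters occurred in the Zcchc12 window, and the GC boxes overlapped no other motif searched.

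All values are log2 ratios, centred on the median of each array and combined into 1 value per pool. A pool value is relative to the mean of the 9 pools for that probe, so it carries no absolute level and cannot be compared between genes. In bulk tissue, fewer cells of a type and less RNA per cell cannot be told apart. The direction rests on reading each ratio as Cy5 over Cy3, which is likely and not stated. It gave Nr2f1, the caudal nuclear receptor COUP-TFI, a caudal minus rostral difference of 1.02 (SE 0.07, limma, adjusted p = 0.0138) and Etv1, an FGF-responsive factor known as rostral, one of -0.80 (SE 0.07, limma, adjusted p = 0.0272). A further Nr2f1 probe had 1.02 (SE 0.17, limma, adjusted p = 0.150) and did not pass. Arrays held between 18085 and 20693 values, and their number limits the precision. The SD had a median over features of 0.151 between pools of a region.

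Zcchc12 had pool values of -0.10, -0.27 and -0.45 in rostral pools 1, 2 and 3. It had -0.18, -0.17 and -0.15 in the middle pools and 0.44, 0.45 and 0.44 in the caudal pools. The 3 caudal pools were high and nearly equal, the middle pools lay inside the range of the rostral pools, and the rostral pools were the spread ones. The group means were -0.27 ± 0.18 for rostral, -0.17 ± 0.01 for middle and 0.44 ± 0.01 for caudal (SD, n = 3). From rostral to middle the mean rose by 0.10, with a 95% interval of -0.10 to 0.30, and from middle to caudal by 0.61, with an interval of 0.41 to 0.81. The whole difference of 0.71 (SE 0.09) was 1.64-fold. The intervals of single steps, here and for the genes below, are not adjusted over features. After adjustment 0 of 18525 features passed from rostral to middle, and 0 from middle to caudal (limma).

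Laptm4b had pool values of -0.28, -0.20 and -0.31 in the rostral, 0.06, 0.07 and 0.03 in the middle and 0.26, 0.22 and 0.15 in the caudal pools. No group overlapped another, and the order of the regions was rostral, middle, caudal. The means were -0.26 ± 0.05, 0.05 ± 0.02 and 0.21 ± 0.05 in that order (SD, n = 3). Its step from rostral to middle was 0.31 (interval 0.19 to 0.43) and that from middle to caudal 0.16 (interval 0.04 to 0.28), and the ends differed by 0.47 (SE 0.05), or 1.39-fold. The gene has the smallest difference between the ends of the 5 and also the tightest pools.

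Rbm20, by the probe with values on all 18 arrays, had -0.29, -0.36 and -0.39 in the rostral pools, 0.22, -0.00 and -0.03 in the middle pools and 0.20, 0.38 and 0.28 in the caudal pools. Middle pool 1 lay above the lowest caudal pool, so these groups overlapped, while every rostral pool was below all others. The means were -0.35 ± 0.05, 0.06 ± 0.14 and 0.29 ± 0.09 (SD, n = 3). The mean rose by 0.41 from rostral to middle (interval 0.22 to 0.61) and by 0.22 from middle to caudal (interval 0.03 to 0.42), and the ends differed by 0.63 (SE 0.08), or 1.55-fold.

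The other Rbm20 probe, with values on 17 arrays, did not show this order. It had -0.34, -0.16 and 0.30 in the rostral, 0.10, 0.25 and -0.30 in the middle and 0.47, -0.28 and -0.04 in the caudal pools, and all groups overlapped. Its caudal minus rostral difference was 0.11 (SE 0.25, interval -0.48 to 0.71), with limma adjusted p = 0.967. The interval includes the 0.63 of the first probe, so at this spread the probes were not shown to differ. What is said of Rbm20 below rests on the first probe alone.

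Cryab had -0.12, -0.37 and -0.54 in the rostral pools, -0.05, -0.06 and -0.12 in the middle pools and 0.52, 0.38 and 0.35 in the caudal pools. Every caudal pool was above all others, and rostral pool 1 reached the level of the lowest middle pool. The means were -0.34 ± 0.21, -0.07 ± 0.04 and 0.42 ± 0.09 (SD, n = 3). The mean rose by 0.27 from rostral to middle (interval 0.01 to 0.52) and by 0.49 from middle to caudal (interval 0.24 to 0.74). With 0.76 (SE 0.11), or 1.69-fold, Cryab had the largest difference between the ends of the 5.

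Vcam1 had -0.10, -0.34 and -0.27 in the rostral, -0.01, -0.08 and 0.01 in the middle and 0.23, 0.29 and 0.28 in the caudal pools. The groups did not overlap, with rostral pool 1 just below the lowest middle pool. The means were -0.24 ± 0.12, -0.03 ± 0.05 and 0.26 ± 0.03 (SD, n = 3). The steps were 0.21 (interval 0.04 to 0.37) and 0.29 (interval 0.13 to 0.46), and the ends differed by 0.50 (SE 0.07), or 1.42-fold.

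**Figure D1:**
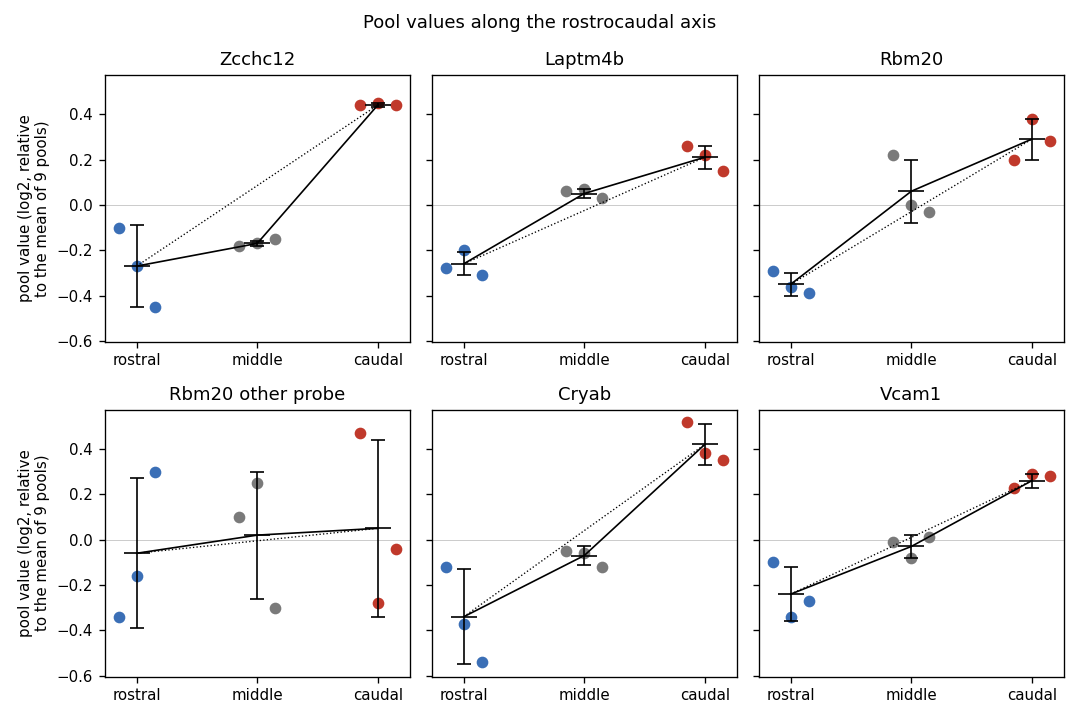
Pool values (log2, relative to the mean of the 9 pools) of the 6 probes by region, with 1 point per pool, the mean and SD of each region (n = 3) and a solid line through the means; the dotted line is an even gradient between the ends. The 3 middle pools of Zcchc12 all lie below the dotted line, its middle mean by 0.25; the middle means of Laptm4b, Rbm20, Cryab and Vcam1 lie closer to it, though middle pool 1 of Rbm20, at 0.22, stands well above it. The other Rbm20 probe has no order.

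The 5 genes can be set against all features by how their pools fall. Every caudal pool was above every rostral pool for 5 of 5 genes, as for 5.89% of all features, a count that the choice of the genes fixes. Every caudal pool was above every middle pool for 4 of 5, all but Rbm20, against 4.38% of features. Every middle pool was above every rostral pool for 3 of 5, Laptm4b, Rbm20 and Vcam1, against 7.66%. The full order of rostral, middle and caudal pools without overlap was found for Laptm4b and Vcam1, 2 of 5, against 0.405% of features. These counts share pools with the contrast that chose the genes and are given as a description. By adjusted p for the difference between the ends, 1 of 5 genes, Laptm4b, was among the 3 features called caudally higher, which are 0.0162% of all. Since this contrast chose the genes, nothing is read from that count. The call was lost without any 1 of the 9 pools (limma, adjusted p between 0.178 and 0.565).

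The test of shape compared the middle with the mean of the ends, a contrast orthogonal to the difference that chose the genes. The profiles were known when the genes were taken up, so its p-values are not independent evidence of a shape. The contrast is 0 for an even gradient, plus 0.5 times the caudal minus rostral difference for a step on the rostral side and minus 0.5 times it for a step on the caudal side. For Zcchc12 the middle lay at -0.25 (SE 0.07, interval -0.43 to -0.08). This interval holds the value of a caudal step, -0.36, and does not hold 0 (limma, unadjusted p = 0.0107, adjusted p = 1). For Laptm4b the middle lay at 0.08 (interval -0.03 to 0.18), and the value of a step on either side would be 0.24 in size. For Rbm20 it lay at 0.09 (interval -0.08 to 0.26), against 0.32 for a step. Cryab had -0.11 (interval -0.33 to 0.11), against 0.38, and Vcam1 had -0.04 (interval -0.18 to 0.10), against 0.25. With arrays centred on their medians, the intervals of these 4 genes hold 0 and reach neither step.

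After adjustment over all 18525 features 0 of 5 genes passed this test, and 0 features passed it in all, which is 0% (limma). Unadjusted, 1 of 5 genes had a p under 0.05, Zcchc12, beside 752 features or 4.06%. The step of Zcchc12 is therefore a matter of size and interval, and not of a call across the table. The unadjusted limma p of the other genes was 0.130 for Laptm4b, 0.233 for Rbm20, 0.267 for Cryab and 0.519 for Vcam1.

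**Figure D2:**
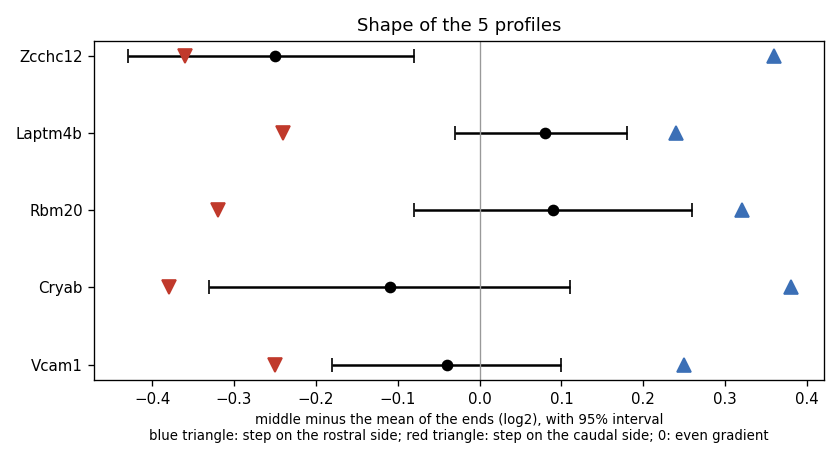
Middle minus the mean of the ends (log2) for the 5 genes, with its 95% interval; triangles mark where a step on the rostral side (blue, up) or on the caudal side (red, down) would lie, and 0 is an even gradient. With arrays centred on their medians, the interval of Zcchc12 covers its red triangle and not 0, and the other 4 cover 0 and neither triangle.

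The same can be read from the position of the middle as a share of the way from rostral to caudal, which is 0.5 for an even gradient and 0 for a caudal step. It was 0.14 (SE 0.11) for Zcchc12, 0.35 (SE 0.12) for Cryab, 0.42 (SE 0.12) for Vcam1, 0.65 (SE 0.12) for Rbm20 and 0.66 (SE 0.10) for Laptm4b. In this order Cryab and Vcam1, and Rbm20 and Laptm4b, are neighbours closer than their standard errors. An even gradient accounted for 85.6% of the variation between regions in Zcchc12, and a caudal step for 98.2%. These percentages restate the share of the way. With 3 regions and a middle between the ends, the even gradient takes most of the variation even in a pure step. A high percentage alone therefore decides no shape. In Vcam1 the even gradient accounted for 99.1%, the caudal step for 82.7% and the rostral step for 66.4%. In Cryab these were 97.2%, 87.9% and 59.2%. In Laptm4b the even gradient accounted for 96.6%, the rostral step for 89.0% and the caudal step for 57.7%, and Rbm20 had 97.2%, 88.0% and 59.2%. Of the 10 features whose caudal excess was at least as large and as clear as that of these genes, themselves included, the share ran from 0.14 to 0.71 with a median of 0.57, and Zcchc12 was the lowest.

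Differences between the genes in the middle minus the mean of the ends were taken within pools, over all 10 pairs. They were not scaled by each gene's difference between the ends, so they mix the size of a profile with its shape. Their intervals are not adjusted for the number of pairs. The middle of Zcchc12, relative to its ends, lay lower than that of Rbm20 by 0.35 (interval 0.14 to 0.56) and lower than that of Laptm4b by 0.33 (interval 0.15 to 0.51). It was lower than that of Vcam1 by 0.21 (interval 0.07 to 0.35) and than that of Cryab by 0.14 (interval 0.02 to 0.26). These intervals exclude 0. An exact permutation test was also run. It exchanged which 3 of the 9 pools were the middle ones (84 arrangements, two-sided, smallest possible p = 0.0119), and gave exact p = 0.0119 for Rbm20, 0.0357 for Laptm4b, 0.0833 for Vcam1 and 0.0238 for Cryab. Adjusted over the 10 pairs, the exact p was 0.119 for Rbm20, Laptm4b and Cryab and 0.19 for Vcam1, so no pair passed. A pair alone at the smallest possible p of 0.0119 could not pass this adjustment, so the lack of a pass decides nothing. The test also treats all 9 pools as exchangeable, although the ends differ by unequal amounts in the genes. The interval of each of the other 6 pairs includes 0, the widest gap among them being 0.21 between Rbm20 and Cryab (interval -0.05 to 0.46). Laptm4b and Rbm20 differed by -0.02 (interval -0.21 to 0.17).

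The shape depends on how arrays are scaled, because centring moves the middle against the ends. Without centring, the median over all features of rostral minus middle was 0.10 and that of middle minus caudal -0.17. The share of the way for Zcchc12 was then 0.00, and with centring on the Gapdh control spots -0.10. Under these scalings it was 0.39 and 0.39 for Laptm4b, 0.44 and 0.45 for Rbm20, 0.20 and 0.15 for Cryab and 0.19 and 0.11 for Vcam1, so that Laptm4b and Rbm20 moved below 0.5. Zcchc12 was lowest and Laptm4b and Rbm20 were highest under all 3 scalings. The middle of Zcchc12 lay at -0.39 without centring (interval -0.58 to -0.20) and at -0.37 by the Gapdh spots (interval -0.58 to -0.17). That of Cryab lay at -0.25 without centring (interval -0.50 to 0.00), where a caudal step would give -0.42, and at -0.23 by the Gapdh spots (interval -0.51 to 0.05), where it would give -0.33. That of Vcam1 lay at -0.18 (interval -0.37 to 0.02, step -0.29) and at -0.16 (interval -0.36 to 0.04, step -0.20). Under these 2 scalings the intervals of Cryab and Vcam1 therefore hold the caudal step as well as the even gradient, Cryab reaching 0.00 only at its bound without centring. Laptm4b had -0.06 (interval -0.26 to 0.14, step -0.27) and -0.04 (interval -0.24 to 0.16, step -0.19), so by the Gapdh spots its interval holds the step too. Rbm20 had -0.04 (interval -0.25 to 0.16, step -0.35) and -0.02 (interval -0.22 to 0.17, step -0.27), which reach no caudal step. The Gapdh spots themselves had pool medians of -0.15 to -0.04 in the rostral, 0.07 to 0.09 in the middle and -0.14 to 0.15 in the caudal pools.

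Single arrays show the same differences before pools are combined, here as more caudal minus more rostral with the dye term removed. They are the ratios from which the pool values were fitted, and they share pools, so they are neither replicates nor further evidence. The arrays joining the ends carry the contrast that chose the genes. Counts of arrays above 0 are a description, without a share over all features beside them. For Zcchc12 the 6 arrays joining caudal to rostral gave 0.36 to 1.19, median 0.58, those joining caudal to middle 0.42 to 0.77, median 0.70, and those joining middle to rostral 0.01 to 0.42, median 0.11. All 18 were above 0, and all but 1 of the middle to rostral arrays lay below every caudal to middle array, the exception matching the lowest of them. Laptm4b gave 0.25 to 1.05 (median 0.51) for caudal minus rostral, 0.09 to 0.46 (median 0.20) for middle minus rostral and -0.11 to 0.40 (median 0.07) for caudal minus middle, where 4 of 6 arrays were above 0. Its highest array carried rostral pool 3 and caudal pool 2. Without that array its rostral minus caudal difference was -0.35, against -0.47 with it.

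Rbm20 gave 0.27 to 0.87 (median 0.52), 0.20 to 0.96 (median 0.53) and 0.20 to 0.46 (median 0.30) for caudal minus rostral, middle minus rostral and caudal minus middle, all 18 above 0. Its other probe gave -0.18 to 0.73 on 5 arrays joining the ends, with 2 of 5 above 0. Cryab gave 0.37 to 1.24 (median 0.76), -0.02 to 0.82 (median 0.15) and 0.12 to 0.67 (median 0.50), and was above 0 on 6, 4 and 6 arrays. Vcam1 gave 0.24 to 0.74 (median 0.49), -0.13 to 0.50 (median 0.19) and 0.19 to 0.42 (median 0.25), and was above 0 on 6, 5 and 6 arrays.

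**Figure D3:**
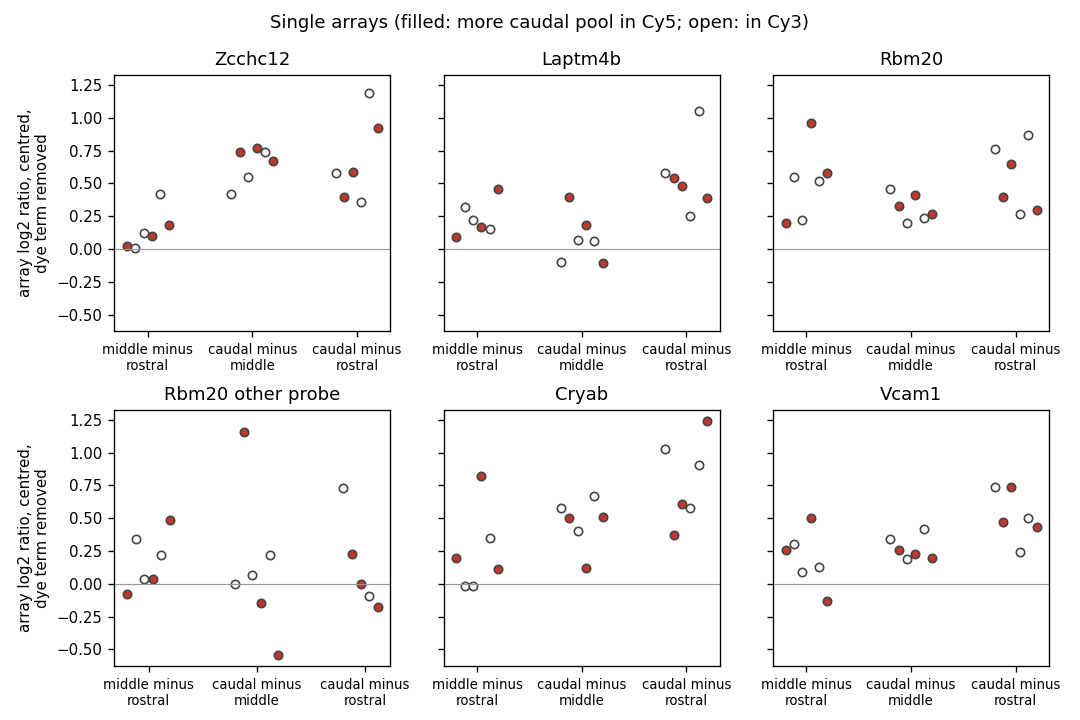
Centred log2 ratios of single arrays with the dye term removed, as more caudal minus more rostral region, for the 3 pairs of regions (6 arrays each, 5 for caudal minus rostral of the other Rbm20 probe). Filled points had the more caudal pool in Cy5 and open points in Cy3; Zcchc12 runs from 0.01 to 0.42 for middle minus rostral and from 0.42 to 0.77 for caudal minus middle.

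The ends were also compared without the arrays that carried both. Caudal minus rostral, taken from the 6 direct arrays, was 0.67 (SE over arrays 0.15) for Zcchc12, and the sum of the steps on the other 12 arrays was 0.79 (SE 0.09). The 2 values were 0.55 (SE 0.12) and 0.32 (SE 0.10) for Laptm4b, 0.54 (SE 0.11) and 0.82 (SE 0.12) for Rbm20, 0.79 (SE 0.15) and 0.70 (SE 0.16) for Cryab and 0.52 (SE 0.09) and 0.47 (SE 0.10) for Vcam1. Laptm4b was the gene whose indirect value fell furthest below the direct one, and Rbm20 went the other way.

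Among pools of 1 region the genes did not all vary together. Zcchc12 and Cryab both had rostral pool 1 highest and rostral pool 3 lowest, and their deviations from the region means correlated at 0.87 over the 9 pools. The same value was 0.64 for Zcchc12 and Vcam1, 0.00 for Laptm4b and Rbm20 and -0.47 for Laptm4b and Vcam1. With the regions included, all 10 pairs correlated between 0.80 and 0.96, as genes chosen for a shared direction must. These are descriptions over pools that share arrays.

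For each gene the 3 named genes with the most similar profile over the 9 pools were sought among 10383 candidates with values on all arrays. Zcchc12 was closest to the WNT antagonist gene Apcdd1 (r = 0.98, caudal minus rostral 0.22, SE 0.05), Slf1 (r = 0.97, 0.42, SE 0.06) and Cryab (r = 0.96). Cryab was closest to the dystrophin gene Dmd (r = 0.98, 0.26, SE 0.05), Zcchc12 and the annexin gene Anxa1 (r = 0.96, 0.33, SE 0.08). Laptm4b was closest to Nr2f1 (r = 0.98), Kti12 (r = 0.97, 0.29, SE 0.05) and Potegl (r = 0.97, 0.27, SE 0.05). Rbm20 was closest to Fgf14 (r = 0.98, 0.28, SE 0.04), Cthrc1 (r = 0.98, 0.38, SE 0.05) and the calcineurin gene Ppp3cb (r = 0.96, 0.14, SE 0.04). Vcam1 was closest to Cthrc1 (r = 0.97), the thyroid hormone binding protein gene Crym (r = 0.97, 0.44, SE 0.07) and Cadps (r = 0.96, 0.36, SE 0.06). The only gene named for 2 of the 5 that is not itself one of them was Cthrc1.

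Genes that share a pathway or family with the 5 were examined as lists, and 0 genes of any of the 8 lists passed in any pair of regions (limma, adjusted over all features), with 0 to 2 genes of a list at an unadjusted p under 0.05 between the ends, as 7.90% of all features had. Each gene is given by the probe with values on most arrays. Of the BMP pathway, in which Zcchc12 acts, 23 of 27 genes were measured, 13 with a higher caudal and 10 with a higher rostral value, and the median caudal minus rostral difference was 0.02, where that of all features was 0.00. The largest values were 0.26 (SE 0.07) for Id3, a BMP target gene, -0.20 (SE 0.21) for the BMP antagonist gene Chrd and -0.18 (SE 0.09) for Maged1, a MAGE family gene. Their limma adjusted p was 0.373, 0.917 and 0.695. A further probe of the ligand gene Bmp2 had 0.44 (SE 0.21). Of the zinc finger CCHC genes, 12 of 14 were measured, 9 higher caudally and 3 rostrally, with a median of 0.02. Of all features, 49.6% were higher caudally. The largest CCHC values were Zcchc8 at 0.71 (SE 0.57), Zcchc24 at 0.33 (SE 0.33) and Zcchc7 at -0.26 (SE 0.08). The value of Zcchc8 equals that of Zcchc12 in size and has an error several times larger.

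Around Laptm4b, 21 of 23 lysosomal genes were measured, 11 higher caudally and 10 rostrally, with a median of 0.00. The largest were the lysosomal channel gene Mcoln1 at -0.25 (SE 0.26), Tfeb, a regulator of lysosomal genes, at -0.18 (SE 0.52) and the cathepsin gene Ctsd at -0.16 (SE 0.31), all within 1 standard error of 0. Of the splicing regulators around Rbm20, 19 of 22 were measured, 13 higher caudally and 6 rostrally, with a median of 0.03. The largest were Rbfox1 at -0.28 (SE 0.07, limma, adjusted p = 0.271), Mbnl1 at -0.11 (SE 0.15) and U2af1 at 0.10 (SE 0.06). Of the transcripts known as Rbm20 splicing targets, 12 of 15 were measured, 5 higher caudally and 7 rostrally, with a median of -0.09. They were led by the triadin gene Trdn at -0.47 (SE 0.14), the tropomyosin gene Tpm1 at 0.32 (SE 0.09) and Camk2d at 0.23 (SE 0.16), with limma adjusted p = 0.373, 0.344 and 0.872. These ratios do not report splicing.

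Of the small heat shock proteins, the family of Cryab, 7 of 9 were measured, 5 higher caudally and 2 rostrally, with a median of 0.07. Hspb9 had 0.46 (SE 0.41), Hspb8 had 0.12 (SE 0.05) and the lens crystallin gene Cryaa had -0.11 (SE 0.15). Of the other chaperones, 13 of 17 were measured, 10 higher caudally and 3 rostrally, with a median of 0.05. Hspa5, the chaperone of the endoplasmic reticulum, had 0.23 (SE 0.07) by 1 probe and 0.05 (SE 0.05) by another. Hsph1 had 0.20 (SE 0.06) and Hsf2 had 0.20 (SE 0.38). Of the integrins and adhesion genes around Vcam1, 18 of 18 were measured, 9 in each direction. Ezr had -0.29 (SE 0.32) and Itga4, the alpha chain of the Vcam1 receptor, had -0.25 (SE 0.72), too spread to give a direction. Ncam1 had -0.16 (SE 0.14), and its other probes had -0.47 (SE 0.25) and -0.02 (SE 0.05). The signs of these list medians depend on the scaling: with centring on the Gapdh spots the median over all features was -0.10 and those of the 8 lists lay between -0.18 and -0.02.

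**Figure D4:**
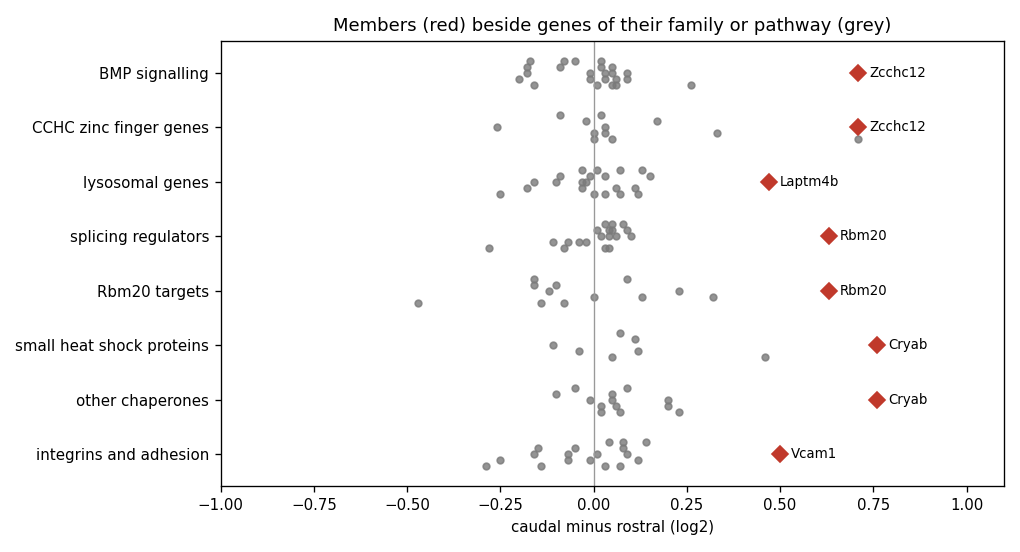
Caudal minus rostral differences (log2) of the 5 genes (red diamonds) and of each measured gene of their family or pathway lists (grey points, 1 probe per gene). All but 1 of the grey points lie below the red diamond of their row, and the exception is Zcchc8 at 0.71 (SE 0.57), level with Zcchc12.

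Markers of other cells the tissue could hold were read on the same pools, where 0 is the mean of the 9 pools and not absence. Of 15 meningeal and mesenchymal genes measured out of 19, 14 (93.3%) had a higher caudal value, as 49.6% of all features had, with a median caudal minus rostral difference of 0.15 (0.23 without centring, 0.06 by the Gapdh spots). Their pool medians were -0.13 to 0.00 rostrally, -0.04 to 0.04 in the middle and 0.01 to 0.12 caudally, and 0 of them passed, with 5 of 15 at an unadjusted p under 0.05, against 7.90% of all features (limma). The largest were the prostaglandin D synthase gene Ptgds at 0.66 (SE 0.13), the decorin gene Dcn at 0.39 (SE 0.09) and the lumican gene Lum at 0.33 (SE 0.14), with limma adjusted p = 0.188, 0.233 and 0.629. Ptgds and Dcn had middle minus caudal values of -0.82 and -0.35 and rostral minus middle values of 0.16 and -0.04. Their difference lay on the caudal side. Cxcl12 and Fn1 had -0.04 and -0.07 for middle minus caudal and -0.23 and -0.11 for rostral minus middle, so theirs lay more on the rostral side. Over the 15 genes the median was -0.06 for either step. Endothelial genes, 14 of 14 measured, had a median of 0.07 and pool medians of -0.04 to 0.01 rostrally and -0.06 to 0.09 caudally. Red blood cell genes, 7 of 12 measured, had a median of 0.17, with pool medians of -0.28 to -0.01 rostrally, 0.06 to 0.09 in the middle and -0.09 to 0.16 caudally. Of these 7, 4 were higher caudally and 3 rostrally. Microglial genes had a median of 0.06 (10 of 12 measured), and pericyte genes one of -0.04 (5 of 7 measured). By the Gapdh spots the medians were -0.03 for endothelial and for microglial genes, 0.07 for red blood cell genes and -0.13 for pericyte genes. That of all features was then -0.10. The part of meninges, vessels and blood in the 5 profiles was not tested.

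Of the markers of the tissue itself, radial glia genes, 14 of 14 measured, had a median of -0.01 over members that went both ways. Of these, 4 of 14 had an unadjusted p under 0.05, against 7.90% of all features (limma). The 1 that passed, among 12 of all 18525 features, was the intermediate filament gene Vim at 0.51 (SE 0.05, limma, adjusted p = 0.0389). Lhx2 at 0.31 (SE 0.07) and Emx2 at 0.25 (SE 0.08) were also among these 4 and higher caudally. The glutamate transporter gene Slc1a3 had -0.32 (SE 0.05, limma, adjusted p = 0.156) and Pax6 had -0.31 (SE 0.20), with other probes at -0.32 (SE 0.29) and -0.22 (SE 0.06) for Slc1a3 and at -0.32 (SE 0.07) for Pax6. Neuronal genes, 15 of 15 measured, had a median of 0.01, and also 4 at an unadjusted p under 0.05 (limma), against the same 7.90%. Medians were 0.03 for choroid plexus and cortical hem (10 of 13 measured), 0.00 for ventral telencephalon (12 of 14), -0.06 for diencephalon (9 of 12) and -0.10 for surface epithelium (8 of 11). The choroid plexus and hem genes were not level at the middle. Their median was 0.08 for rostral minus middle and -0.21 for middle minus caudal, where that of all features was 0.00, and 0 of them passed in either step (limma). Heat shock and immediate early genes, which can rise with handling, had a median of 0.04 (12 of 13), with 8 higher caudally and 4 rostrally. The largest were Egr1 at -0.53 (SE 0.48) and Jun at 0.45 (SE 0.23). Of Xist and Y-linked genes, 4 of 5 were measured. Xist had 0.15 (SE 0.28), and the Y-linked Uty, Eif2s3y and Kdm5d had -0.20 (SE 0.31), 0.09 (SE 0.07) and -0.03 (SE 0.08). Their median of 0.03 cannot show a sex imbalance, which would move Xist and the Y-linked genes in opposite directions. Zcchc12 is X-linked. The part of these in the profiles was not tested.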

How the data were processed

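The authors deposited 1 log2 ratio per probe and array for 21998 probes. The base was read from the values, whose cap of 16.61 is log2 of 100000. Scanner, background correction, normalization and direction are, in the sources used here, not given, and gene symbols are those of the platform annotation. The 1477 capped values were set to missing, 232 Gapdh control spots were left out, and each array, with medians of -0.09 to 0.61, was centred on its median. Features needed 12 or more arrays with a value, and 2 or more for every pool. Least squares over the arrays gave 1 value per pool and 1 dye term. The 9 pool values were then modelled by region in limma 3.58.1 (R 4.3.3), at 6 residual degrees of freedom plus 1.26 prior ones. P-values are two-sided and adjusted by Benjamini and Hochberg over 18525 features, and a feature passes under 0.05. Intervals are 95% intervals.

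The genes, the lists and the shapes compared were chosen with earlier results of these data known. Named are all probes of the 5 genes, per pathway or family list the 3 largest differences between the ends by 1 probe per gene and any gene that passed, and per gene the 3 most correlated genes with 1 symbol and values on all 18 arrays. Marker genes, the further Bmp2 probe and the test between gene pairs were taken up after their values were seen. The fit was tested on simulated data. The pool numbers do not pair the pools: 0 arrays held pools of the same number, and same-numbered pools had deviations that correlated between -0.43 and -0.06. Alternatives were no centring, no dye term, capped ratios kept, features on all 18 arrays, the pool number as a replicate block, limma on arrays, and leaving out each pool and array.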

Additional observations from a re-analysis of the deposited data

How the results depend on the processing

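Of the alternatives run, 0 reversed the direction of a called value, but only 1 value of the 5 genes was called, that of Laptm4b between the ends. Values that were not called did change sign. Rostral minus middle of Zcchc12 went from -0.10 to 0.06 by the Gapdh spots. Without centring, the middle minus the mean of the ends went from 0.08 to -0.06 for Laptm4b and from 0.09 to -0.04 for Rbm20. With the pool number as a replicate block, 0 features passed between rostral and caudal, against 12 without it, and 1099 against 1464 had an unadjusted p under 0.05 (limma), while Laptm4b lost its call (limma, adjusted p = 0.301). Without centring 0 features passed and 1152 had an unadjusted p under 0.05, with features on all 18 arrays 46, and leaving out 1 pool gave between 0 and 4 (962 to 1388 unadjusted), the 4 without middle pool 1 and 0 without any other. Centring on the Gapdh control spots, an alternative chosen after seeing the data, gave 9. Limma on the 18 arrays called 1325 features between rostral and caudal, 703 between rostral and middle, 501 between middle and caudal and 292 for the middle against the ends, and it ignores that arrays share pools. Leaving out 1 array or 1 pool kept the share of the way between 0.04 and 0.20 for Zcchc12, 0.54 and 0.74 for Laptm4b, 0.53 and 0.73 for Rbm20, 0.27 and 0.46 for Cryab and 0.33 and 0.48 for Vcam1. The step of Zcchc12 had an adjusted p between 0.0635 and 1 over all alternatives (limma), and passed in none. Signal over background is unknown, so dim probes could not be told apart.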
